A study of Solanum lycopersicum with 15 samples.

Results

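Glutamine synthetase and glutamate synthase form the cycle that turns ammonium into amino acids in plants. The genes described are 7 tomato loci of these enzymes out of 34075 genes in the expression table. They were taken by locus number, whatever their values: Solyc04g014510, Solyc11g011380, Solyc05g051250 and Solyc12g041870 as cytosolic glutamine synthetases, Solyc01g080280 as the plastid glutamine synthetase, and Solyc03g083440 and Solyc03g063560 as glutamate synthases. The first 2 digits of a locus number give its chromosome, so the loci lie on chromosomes 4, 11, 5, 12, 1, 3 and 3. All 7 have a row in the table, and 5 of the 7 passed the filter on low values (at least 1 FPKM in at least 3 libraries) and were tested. These class names come from the list of loci and not from the table, which pairs no identifier with a name.

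Polyadenylated RNA was sequenced from roots of Solanum lycopersicum in 5 nutrient regimes of 3 libraries each. Roots were given back iron together with nitrate, with ammonium or with urea, or iron without any nitrogen (iron alone), and control roots had neither iron nor nitrogen. All 5 groups were root tissue; cultivar, age and the length of the treatments were not given in the labels, which also do not say whether the 3 libraries of a regime came from separate plants. Expression is in FPKM (read fragments per unit of transcript length and of sequencing depth), which allows levels to be compared between genes. FPKM totals ranged from 546848 to 589451 between libraries, and relative depth, read from the smallest values, ranged from 0.87 to 1.27 times that of the median library. In bulk tissue, fewer cells of a type and less RNA per cell cannot be told apart.

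Glutamine synthetase joins ammonium to glutamate to make glutamine, at the cost of ATP. Glutamate synthase then passes the amide nitrogen of glutamine to 2-oxoglutarate, which gives back glutamate. Ammonium enters this cycle directly, nitrate after reduction to nitrite and ammonium, and urea after it has been split by urease. Roots are known for their cytosolic glutamine synthetases, while the plastid enzyme is best known from leaves, where it recovers ammonium set free in photorespiration. The glutamate synthases of plants are iron-sulfur enzymes of the plastid that take electrons from either ferredoxin or NADH. Which donor the 2 loci use is not stated in the sources used here.

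The cytosolic glutamine synthetase Solyc04g014510 reached the highest level of the loci, with iron and ammonium, and was the most abundant of them with ammonium and with urea; in the other 3 regimes Solyc11g011380 was higher on average. It stood at 1146, 1003 and 1195 FPKM with iron and nitrate, 3055, 2576 and 3228 FPKM with iron and ammonium, 1508, 1800.5 and 1625 FPKM with iron and urea, 502, 404 and 436 FPKM with iron alone, and 530.1, 583 and 545 FPKM in control roots. No library of a nitrogen-fed regime overlapped with the regimes without nitrogen, and the ammonium libraries lay above all others. In the ammonium libraries only 1 or 2 of all 34075 genes had a higher FPKM, so that its rank was 2, 2 and 3, against 107 to 142 with iron alone.

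The other abundant cytosolic glutamine synthetase, Solyc11g011380, had another pattern. It stood at 1163, 1167 and 1395 FPKM with iron and nitrate, 1055, 1002 and 1138 FPKM with iron and ammonium, 500.3, 699.7 and 594 FPKM with iron and urea, 767, 698 and 806 FPKM with iron alone, and 1102, 1038 and 1067 FPKM in control roots. Its means spanned 2.08-fold between the highest and the lowest regime, against 6.6-fold for Solyc04g014510. The ammonium and control libraries of Solyc11g011380 overlapped, as did the urea and iron-alone libraries.

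Of the other cytosolic loci, Solyc12g041870 was listed at 0 FPKM in all 15 libraries. Solyc05g051250 was listed at 0.116 FPKM in iron and ammonium replicate 2, at 0.0718 FPKM in iron and urea replicate 3, and at 0 in the remaining 13 libraries. Neither reached 1 FPKM in any library, and neither was tested. A value of 0 in FPKM data says only that the gene is listed at 0, so no fold change is given for them.

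The plastid glutamine synthetase Solyc01g080280 was far lower than the abundant cytosolic loci in every library. It stood at 111, 92.6 and 142 FPKM with iron and nitrate, 39.9, 35.1 and 48.6 FPKM with iron and ammonium, 14.9, 21.8 and 14.4 FPKM with iron and urea, 36.2, 30.1 and 42.1 FPKM with iron alone, and 56.9, 63.9 and 70.8 FPKM in control roots. The nitrate libraries were above and the urea libraries below all others. Its regime means spanned 6.78-fold, as wide as those of Solyc04g014510 but in another order of regimes.

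Of the glutamate synthases, Solyc03g083440 was the more abundant in every library. It stood at 264, 229.7 and 311 FPKM with iron and nitrate, 513, 511 and 599 FPKM with iron and ammonium, 513, 455 and 370.3 FPKM with iron and urea, 72.1, 60.4 and 62.7 FPKM with iron alone, and 84.9, 91.9 and 90.2 FPKM in control roots. Its means spanned 8.31-fold, the widest range among the 5 tested loci. The ammonium and urea libraries overlapped with each other and lay above the nitrate libraries, which lay above those without nitrogen.

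Solyc03g063560, the other glutamate synthase, varied least. It stood at 20.9, 17.1 and 21.1 FPKM with iron and nitrate, 14.8, 16.8 and 16.5 FPKM with iron and ammonium, 13.9, 12.9 and 13.4 FPKM with iron and urea, 13.7, 12.5 and 15.3 FPKM with iron alone, and 17.6, 19.5 and 19.0 FPKM in control roots. Its means spanned 1.47-fold, and the libraries of several regimes overlapped.

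**Figure D1:**
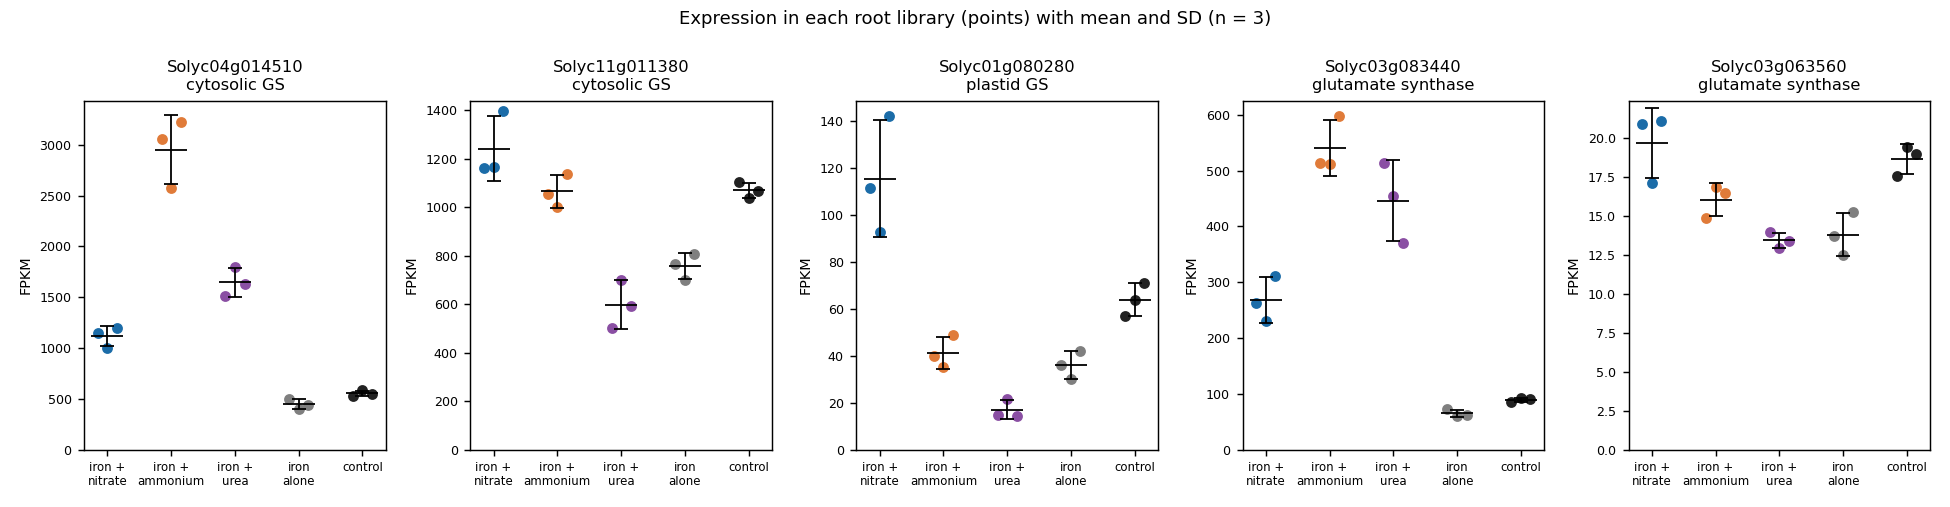
FPKM of the 5 tested loci (one panel each, with its own vertical axis from 0) in the root libraries of the 5 regimes; points are libraries, bars the mean and SD of 3 libraries, and GS is glutamine synthetase. Solyc04g014510 and Solyc03g083440 are highest with iron and ammonium (means of 2953 and 541 FPKM) and lowest with iron alone, while the other 3 loci are highest with iron and nitrate and lowest with iron and urea.

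By their means, the 5 tested loci fell into 2 orders of regimes. From the highest mean to the lowest, Solyc04g014510 and Solyc03g083440 followed ammonium, urea, nitrate, control and iron alone. Solyc11g011380, Solyc01g080280 and Solyc03g063560 followed nitrate, control, ammonium, iron alone and urea. Parts of this second order rest on nearly equal means. Control and ammonium stood at 1069 and 1065 FPKM for Solyc11g011380 (limma adjusted p = 0.98). Iron alone and urea stood at 13.8 and 13.4 FPKM for Solyc03g063560 (limma adjusted p = 0.85). Pearson's r of log2(FPKM + 1) over the 15 libraries was 0.97 between Solyc04g014510 and Solyc03g083440, and 0.82 to 0.91 among the other 3 loci. Between loci of different orders r lay between -0.21 and 0.06. These coefficients describe 15 libraries that fall into 5 regimes, and they carry no test. All loci of a library share the sequencing depth of that library. For the deviations of the libraries from their regime means, r between loci of different orders was 0.17 to 0.73, highest for Solyc04g014510 and Solyc01g080280. Within the same order, r of these deviations was 0.51 for Solyc04g014510 and Solyc03g083440, and 0.13 to 0.80 among the other 3 loci. The deviations therefore did not separate the orders.

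The first question was what nitrate adds when iron is back, in roots given iron and nitrate against iron alone. All 5 tested loci rose, where 11.7% of the 18889 genes tested changed, 4.58% rising and 7.08% falling. The glutamate synthase Solyc03g083440 averaged 268 ± 40.8 FPKM with nitrate and 65.1 ± 6.18 FPKM with iron alone (SD, n = 3), 4.12 times as much (log2 change 2.02, standard error 0.13, limma adjusted p = 5.6e-07). The plastid glutamine synthetase Solyc01g080280 averaged 115 ± 25 FPKM with nitrate and 36.1 ± 5.98 FPKM with iron alone, 3.19 times as much (log2 change 1.64, standard error 0.19, limma adjusted p = 8.5e-05). For each of the 5 loci the groups did not overlap, but the share of all tested genes without overlap was not counted.

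The cytosolic glutamine synthetase Solyc04g014510 averaged 1115 ± 99.6 FPKM with nitrate and 447 ± 49.9 FPKM with iron alone (log2 change 1.32, standard error 0.11, limma adjusted p = 5.9e-06). Solyc11g011380 averaged 1242 ± 133 FPKM with nitrate and 757 ± 54.6 FPKM with iron alone (log2 change 0.71, standard error 0.12, limma adjusted p = 0.0014). The smallest of these rises was that of the glutamate synthase Solyc03g063560, at 19.7 ± 2.24 FPKM with nitrate and 13.8 ± 1.39 FPKM with iron alone (log2 change 0.48, standard error 0.10, limma adjusted p = 0.0055). Its call was lost when only these groups were fitted (adjusted p = 0.062). The median log2 change was 1.32 over the 5 loci and -0.05 over all tested genes.

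Ammonium, also set against iron alone, raised 1 cytosolic glutamine synthetase and 1 glutamate synthase far more than the rest of the family. In all 3 of the 5 tested loci rose and 0 fell, where 13.9% of all tested genes changed, 6.29% rising and 7.58% falling (limma; at an unadjusted p under 0.05, 5305 of all tested genes changed). Solyc03g083440 averaged 541 ± 50 FPKM with ammonium and 65.1 ± 6.18 FPKM with iron alone, 8.31 times as much (log2 change 3.04, standard error 0.13, limma adjusted p = 1.9e-08). Solyc04g014510 averaged 2953 ± 338 FPKM with ammonium and 447 ± 49.9 FPKM with iron alone, 6.6 times as much (log2 change 2.72, standard error 0.11, limma adjusted p = 1.9e-08). Counted from the largest rise downward, these loci stood at positions 9 and 15 among the 18889 tested genes.

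Solyc11g011380 rose with ammonium by a small amount, to 1065 ± 68.7 FPKM against 757 ± 54.6 FPKM with iron alone (log2 change 0.49, standard error 0.12, limma adjusted p = 0.013). This call was lost without iron alone replicate 2 (adjusted p = 0.051) and without iron and ammonium replicate 3 (0.053), over a range of 0.0043 to 0.053 in all alternatives tried. The plastid locus Solyc01g080280 did not pass the test, at 41.2 ± 6.88 FPKM with ammonium and 36.1 ± 5.98 FPKM with iron alone (log2 change 0.18, 95% interval -0.22 to 0.59, limma adjusted p = 0.57). Nor did Solyc03g063560, at 16.0 ± 1.06 FPKM with ammonium and 13.8 ± 1.39 FPKM with iron alone (log2 change 0.21, limma adjusted p = 0.18). The median log2 change was 0.49 over the 5 loci and -0.03 over all tested genes.

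Urea moved the loci in opposite directions relative to iron alone. Of the 5 tested loci 2 rose and 2 fell, where 19% of all tested genes changed, 5.75% rising and 13.2% falling. Solyc03g083440 averaged 446 ± 71.9 FPKM with urea and 65.1 ± 6.18 FPKM with iron alone, 6.86 times as much (log2 change 2.75, standard error 0.13, limma adjusted p = 1.2e-07). Solyc04g014510 averaged 1645 ± 147 FPKM with urea and 447 ± 49.9 FPKM with iron alone, 3.68 times as much (log2 change 1.88, standard error 0.11, limma adjusted p = 4.6e-07).

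The plastid glutamine synthetase Solyc01g080280 fell to 17.0 ± 4.13 FPKM with urea, against 36.1 ± 5.98 FPKM with iron alone, 0.471 times the level (log2 change -1.05, standard error 0.19, limma adjusted p = 0.0016). Its groups did not overlap. The fall of Solyc11g011380, at 598 ± 99.8 FPKM with urea and 757 ± 54.6 FPKM with iron alone, was near the threshold (log2 change -0.35, standard error 0.12, limma adjusted p = 0.049), and its groups overlapped at 699.7 FPKM in iron and urea replicate 2 and 698 FPKM in iron alone replicate 2. The call was lost in 11 of 15 alternatives, among them size factors (adjusted p = 0.16), only these groups fitted (0.15), and leaving out iron alone replicate 1 or 3 (0.11 and 0.15) or iron and urea replicate 1 or 3 (0.19 and 0.098). Solyc03g063560 had 13.4 ± 0.511 FPKM with urea and 13.8 ± 1.39 FPKM with iron alone (log2 change -0.03, 95% interval -0.24 to 0.17, limma adjusted p = 0.85). The median log2 change was -0.03 over the 5 loci and -0.10 over all tested genes.

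**Figure D2:**
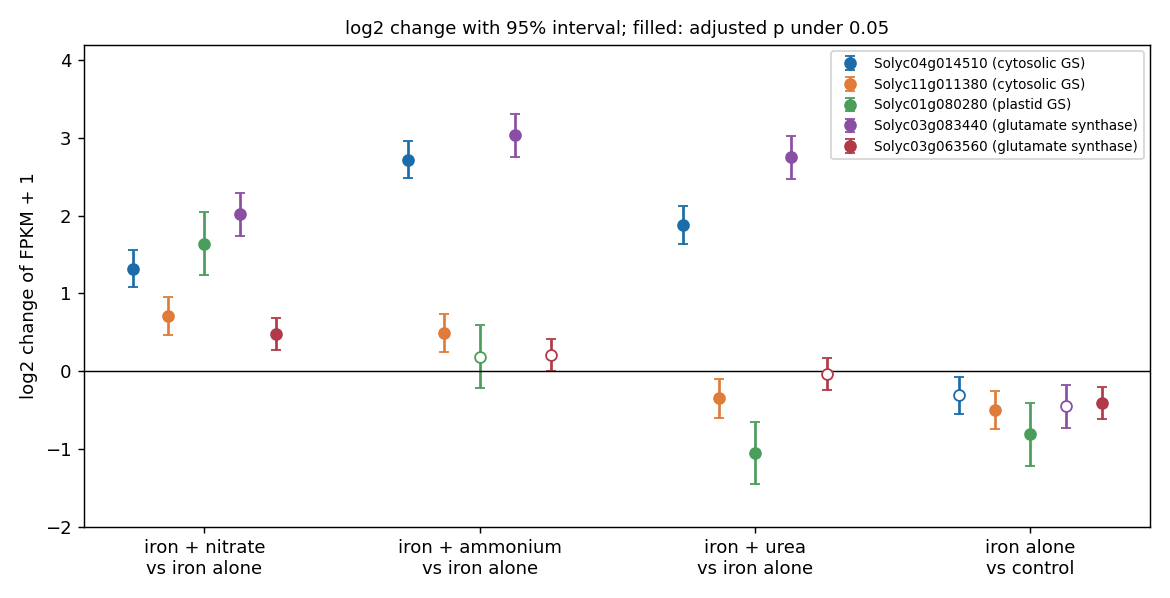
Log2 change of FPKM + 1 for the 5 tested loci in 4 comparisons, each with its 95% interval from the limma fit; filled points passed an adjusted p of 0.05, open points did not, and GS is glutamine synthetase. All 5 loci are above 0 for nitrate, Solyc04g014510 and Solyc03g083440 are the highest for ammonium (2.72 and 3.04) and urea (1.88 and 2.75), and all 5 are below 0 for iron alone against control.

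Iron alone was compared with control to see the response to iron without nitrogen. Of the 5 tested loci 3 fell and 0 rose, where 6.4% of all tested genes changed, 2.97% rising and 3.43% falling (limma; at an unadjusted p under 0.05, 3972 of all tested genes changed). The plastid locus Solyc01g080280 fell to 36.1 ± 5.98 FPKM with iron alone, against 63.9 ± 6.91 FPKM in control roots (log2 change -0.81, standard error 0.19, limma adjusted p = 0.023). Solyc11g011380 fell to 757 ± 54.6 FPKM with iron alone, against 1069 ± 32.2 FPKM in control roots (log2 change -0.50, standard error 0.12, limma adjusted p = 0.023). Solyc03g063560 fell to 13.8 ± 1.39 FPKM with iron alone, against 18.7 ± 0.967 FPKM in control roots (log2 change -0.41, standard error 0.10, limma adjusted p = 0.023).

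The other 2 loci were also lower with iron alone but missed the threshold. Solyc03g083440 averaged 65.1 ± 6.18 FPKM with iron alone and 89.0 ± 3.64 FPKM in control roots (log2 change -0.45, 95% interval -0.73 to -0.17, limma adjusted p = 0.054), and Solyc04g014510 averaged 447 ± 49.9 FPKM with iron alone and 553 ± 27.5 FPKM in control roots (log2 change -0.31, 95% interval -0.55 to -0.07, limma adjusted p = 0.12). In all 5 loci each iron-alone library lay below each control library, but the share of all tested genes that separate in this way was not counted. The number called was 0 without control replicate 2 or 3 and without iron alone replicate 1 or 2, and 2 without control replicate 1, where the call of Solyc11g011380 was lost (adjusted p = 0.069). Over all tested genes the calls ranged from 530 to 1381 with a library left out, the highest without iron alone replicate 3, against 1209 with all libraries. The call of Solyc03g063560 was also lost when only these groups were fitted (adjusted p = 0.068). The median log2 change was -0.45 over the 5 loci and 0.01 over all tested genes.

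**Figure D3:**
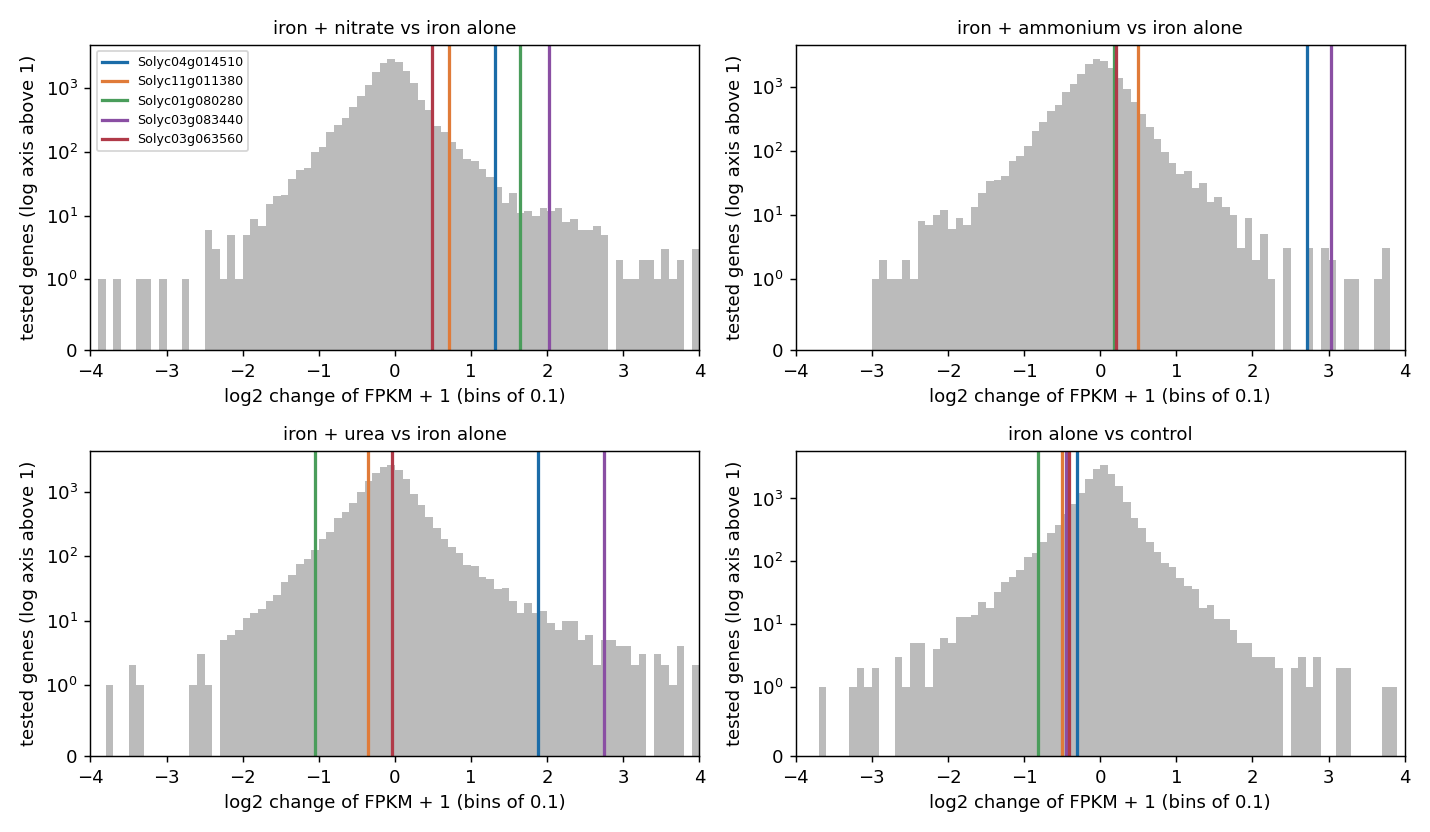
Number of tested genes (vertical axis, logarithmic above 1) by log2 change of FPKM + 1 in bins of 0.1, for 4 comparisons; coloured lines mark the 5 tested loci, and genes with a change beyond 4 in either direction are not drawn. For ammonium the lines of Solyc04g014510 and Solyc03g083440 stand at 2.72 and 3.04, where few genes remain, and for iron alone against control all 5 lines stand on the negative side between -0.81 and -0.31.

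The nitrogen forms were next set against each other, all with iron. Between nitrate and ammonium, 3 of the 5 tested loci differed, 1 higher and 2 lower with nitrate, where 7.06% of all tested genes differed, 3.38% higher and 3.67% lower with nitrate. Solyc04g014510 averaged 1115 ± 99.6 FPKM with nitrate and 2953 ± 338 FPKM with ammonium (log2 difference -1.40, standard error 0.11, limma adjusted p = 6.7e-06). Solyc03g083440 was also lower with nitrate, at 268 ± 40.8 FPKM against 541 ± 50 FPKM with ammonium (log2 difference -1.02, standard error 0.13, limma adjusted p = 0.00026). The plastid locus Solyc01g080280 was higher with nitrate, at 115 ± 25 FPKM against 41.2 ± 6.88 FPKM with ammonium (log2 difference 1.45, standard error 0.19, limma adjusted p = 0.00031). Solyc11g011380 and Solyc03g063560 had log2 differences of 0.22 (95% interval -0.03 to 0.47) and 0.28 (95% interval 0.07 to 0.48) and did not pass the test (limma adjusted p = 0.32 and 0.11). Without iron and nitrate replicate 2, Solyc03g063560 passed it (adjusted p = 0.04).

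Between nitrate and urea all 5 tested loci differed, 3 higher and 2 lower with nitrate, where 19.6% of all tested genes differed, 11.3% higher and 8.31% lower with nitrate. The largest difference was that of the plastid locus Solyc01g080280, at 115 ± 25 FPKM with nitrate and 17.0 ± 4.13 FPKM with urea, a 6.78-fold difference (log2 difference 2.69, standard error 0.19, limma adjusted p = 4.3e-07). Solyc11g011380 and Solyc03g063560 were likewise higher with nitrate, by log2 differences of 1.06 and 0.52 (limma adjusted p = 2.3e-05 and 0.0018). Solyc03g083440 and Solyc04g014510 were lower with nitrate, with log2 differences of -0.73 and -0.56 (limma adjusted p = 0.0012 and 0.0029).

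Between ammonium and urea the 3 glutamine synthetases differed and the glutamate synthases did not pass the test, so that 3 of 5 loci were called, all higher with ammonium, where 11.1% of all tested genes were called, 7.09% higher and 3.97% lower with ammonium. Solyc04g014510 and Solyc11g011380 were higher with ammonium by the same log2 difference of 0.84 (standard errors 0.11 and 0.12, limma adjusted p = 0.00042 and 0.00052), and Solyc01g080280 was higher with ammonium by 1.24 (standard error 0.19, limma adjusted p = 0.0011). Solyc03g083440 averaged 541 ± 50 FPKM with ammonium and 446 ± 71.9 FPKM with urea (log2 difference 0.29, 95% interval 0.01 to 0.56, limma adjusted p = 0.17), and its groups overlapped. For Solyc03g063560 the log2 difference was 0.24 (95% interval 0.03 to 0.45, limma adjusted p = 0.13).

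Against control roots, Solyc04g014510 and Solyc03g083440 were higher in all 3 regimes with iron and nitrogen. With nitrate 3 of the 5 tested loci rose, where 15.6% of all tested genes changed, 6.92% rising and 8.65% falling. Solyc03g083440, Solyc04g014510 and Solyc01g080280 had log2 changes of 1.57, 1.01 and 0.83 (limma adjusted p = 5.1e-06, 6.1e-05 and 0.0083). Solyc11g011380 and Solyc03g063560 had log2 changes of 0.21 and 0.07 (limma adjusted p = 0.26 and 0.71).

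With ammonium, 2 of the 5 loci rose and 1 fell against control, where 20.8% of all tested genes changed, 9.89% rising and 10.9% falling. Solyc03g083440 and Solyc04g014510 had log2 changes of 2.59 and 2.41 (limma adjusted p = 6.5e-08 and 4.8e-08). The plastid locus Solyc01g080280 fell to 41.2 ± 6.88 FPKM with ammonium, against 63.9 ± 6.91 FPKM in control roots (log2 change -0.63, limma adjusted p = 0.03). That call was lost without control replicate 2 or 3 (adjusted p = 0.073 and 0.11) and without iron and ammonium replicate 1 or 2 (0.083 and 0.11), while the adjusted p over all alternatives ran between 0.016 and 0.11. Solyc11g011380 had a log2 change of -0.01 (95% interval -0.26 to 0.24) and Solyc03g063560 one of -0.21 (limma adjusted p = 0.98 and 0.15).

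With urea all 5 tested loci changed against control, where 27.3% of all tested genes did, 9.74% rising and 17.6% falling. Solyc03g083440 and Solyc04g014510 rose, with log2 changes of 2.30 and 1.57 (limma adjusted p = 2.1e-07 and 8.2e-07). The plastid locus Solyc01g080280 fell to 0.266 times its level in control roots (log2 change -1.87, standard error 0.19, limma adjusted p = 1.3e-05). Solyc11g011380 and Solyc03g063560 fell too, with log2 changes of -0.85 and -0.45 (limma adjusted p = 0.00014 and 0.0037). The comparisons with iron alone share the iron-alone libraries and those with control share the control libraries, so their values are set side by side and not counted as independent.

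The tests between neighbours in the order of levels separated some regimes and not others. For Solyc04g014510 ammonium, urea and nitrate each differed from the next lower regime, and only control and iron alone did not pass the test. For Solyc03g083440 ammonium and urea, and control and iron alone, did not pass it, while urea and nitrate, and nitrate and control, differed. For Solyc01g080280 only ammonium and iron alone did not pass the test, and the call between control and ammonium was lost in 4 of 15 alternatives. For Solyc11g011380 nitrate and control, and control and ammonium, did not pass it. Its call between ammonium and iron alone was lost in 2 of 15 alternatives, and that between iron alone and urea in 11 of 15. For Solyc03g063560 no neighbouring regimes passed the test, although nitrate was above iron alone and urea, and control was above iron alone and urea.

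Expression of the glutamine synthetases together was highest with ammonium and lowest with iron alone. The summed FPKM of the loci was 2472 ± 239 with iron and nitrate, 4059 ± 409 with iron and ammonium, 2260 ± 250.2 with iron and urea, 1240.2 ± 94.4 with iron alone and 1686 ± 3.65 in control roots (SD, n = 3). This was 0.437%, 0.708%, 0.4%, 0.216% and 0.305% of the FPKM total of these regimes. The summed FPKM of the glutamate synthases was 288 ± 42.6 with nitrate, 557 ± 50.3 with ammonium, 459.6 ± 72.1 with urea, 78.9 ± 6.48 with iron alone and 108 ± 4.6 in control roots. These sums are descriptions and were not tested. After scaling by size factors or to equal FPKM totals, the glutamine synthetase sum in control roots lay between 1640 and 1728. That is a wider range than its SD of 3.65 covers.

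The make-up of the glutamine synthetase transcripts changed with the nitrogen form. Solyc04g014510 held 45.1 ± 1.94% of their summed FPKM with nitrate, 72.7 ± 1.22% with ammonium, 72.9 ± 1.58% with urea, 36 ± 2.27% with iron alone and 32.8 ± 1.65% in control roots. Solyc11g011380 held 50.2 ± 1.91% with nitrate, 26.3 ± 1.24% with ammonium, 26.4 ± 1.52% with urea, 61.1 ± 2.06% with iron alone and 63.4 ± 1.83% in control roots. The plastid locus Solyc01g080280 held 4.63 ± 0.557% with nitrate, 1.01 ± 0.0788% with ammonium, 0.748 ± 0.11% with urea, 2.9 ± 0.327% with iron alone and 3.79 ± 0.418% in control roots. The share of Solyc04g014510 in each ammonium and urea library, 71.3% to 74.5%, was thus above its share in each other library, 31.4% to 47.4%.

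**Figure D4:**
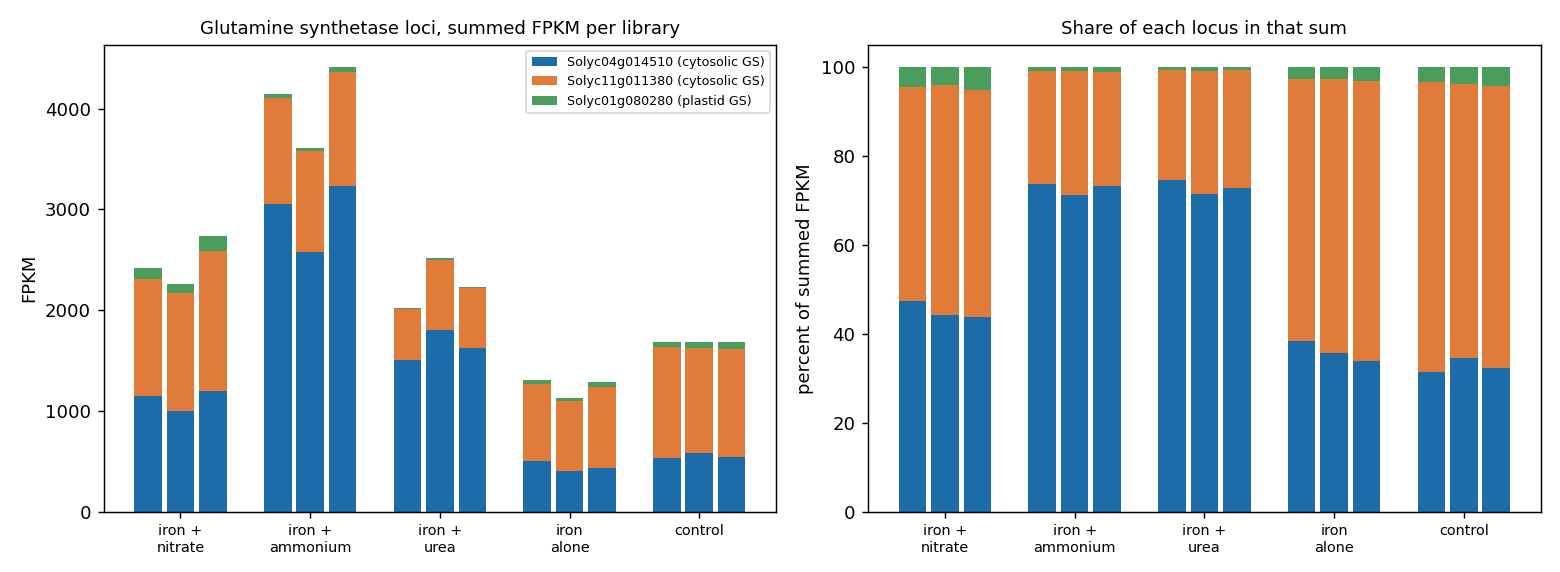
Left, FPKM of the 3 tested glutamine synthetase (GS) loci stacked for each of the 15 libraries, with 3 bars per regime in replicate order; right, the share of each locus in that sum in percent. The share of Solyc04g014510 is near 73% in every ammonium and urea library and between 31.4% and 47.4% in the libraries of the other regimes.

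Ratios between loci of the same library are not changed by multiplying a library by a single factor, as size factors and equal FPKM totals do; quantile normalization does change them. The ratio of Solyc04g014510 to Solyc11g011380 was 0.856 to 0.986 with nitrate, 2.57 to 2.9 with ammonium, 2.57 to 3.02 with urea, 0.541 to 0.654 with iron alone and 0.481 to 0.562 in control roots. The ammonium and urea libraries covered nearly the same range although Solyc04g014510 itself was 1.8 times as high with ammonium as with urea. The ratio of the glutamate synthase Solyc03g083440 to Solyc03g063560 was 12.6 to 14.8 with nitrate, 30.4 to 36.4 with ammonium, 27.6 to 36.8 with urea, 4.11 to 5.27 with iron alone and 4.73 to 4.83 in control roots. In these ratios too the ammonium and urea libraries overlapped, and the nitrate libraries lay between them and the regimes without nitrogen.

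The summed glutamine synthetases exceeded the summed glutamate synthases in every library. Their ratio was 8.23 to 9.17 with nitrate, 6.84 to 7.86 with ammonium, 3.84 to 5.82 with urea, 15.2 to 16.5 with iron alone and 15.1 to 16.5 in control roots. The regimes without nitrogen overlapped, and each nitrogen form lay below them without overlapping another form.

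**Figure D5:**
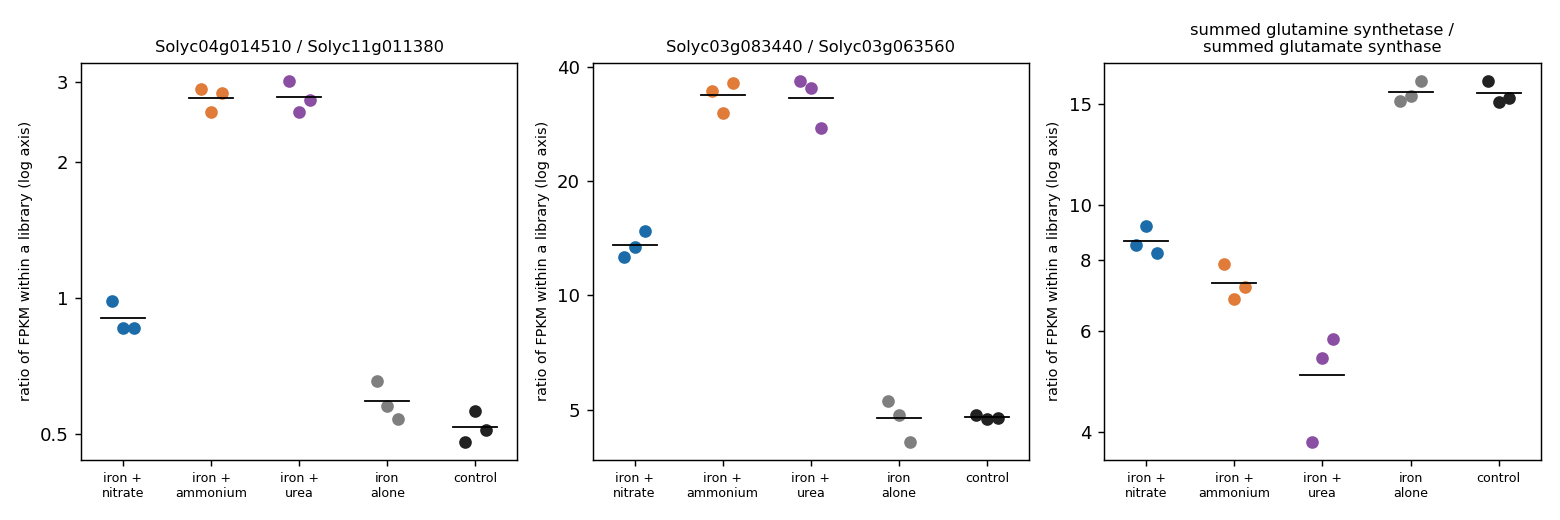
Ratios of FPKM within each library on a logarithmic axis, by regime; points are libraries and lines the mean of 3 libraries. The ratios of Solyc04g014510 to Solyc11g011380 and of Solyc03g083440 to Solyc03g063560 are highest with ammonium and urea (means of 2.77 and 2.78, and of 33.8 and 33.2), and the ratio of summed glutamine synthetase to summed glutamate synthase is highest in the regimes without nitrogen (means of 15.7).

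For each tested locus the 2 other genes with the most similar pattern were found by Pearson's r of log2(FPKM + 1) over the 15 libraries, as a description. They were Solyc04g050440 and Solyc10g080350 for Solyc04g014510 (r = 0.97 and 0.96) and Solyc09g009260 and Solyc03g112070 for Solyc03g083440 (r = 0.97 and 0.95). Solyc04g050440 averaged 269 FPKM with nitrate, 620 FPKM with ammonium, 269.9 FPKM with urea, 73.8 FPKM with iron alone and 93.7 FPKM in control roots. For Solyc11g011380 they were Solyc04g082600 and Solyc03g083320 (r = 0.96 each), for Solyc01g080280 Solyc03g112100 and Solyc05g005870 (r = 0.98 each), and for Solyc03g063560 Solyc04g081260 and Solyc06g074800 (r = 0.95 and 0.94). Solyc03g112100, the closest to the plastid glutamine synthetase, averaged 2244 FPKM with nitrate, 1003 FPKM with ammonium, 553 FPKM with urea, 927 FPKM with iron alone and 1738 FPKM in control roots. The table names none of these genes. Pearson's r does not measure the size of a change. The regime means of Solyc10g080350 lay only between 8.4 and 14.1 FPKM, and those of Solyc03g112070 between 49.9 and 76.4 FPKM.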

How the data were processed

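RNA from 15 tomato root libraries was analysed. The values are FPKM per gene deposited by the authors, as the title of their table says. The aligner was HISAT2, per the submitters' processing notes. The sources used here give no version of it, no genome build and no FPKM software; identifiers carry the annotation name ITAG4.0. FPKM corrects for length and depth but not for the composition of the RNA. Absolute depth is unknown, so no counting interval is given. Relative depth came from the ratios between values of genes under 0.5 FPKM, and all 105 pairs of libraries matched 1 depth per library within 0.05 (log2).

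The filter on low values (1 FPKM or more in 3 or more libraries) left 18889 of 34075 genes. In limma 3.58.1 under R 4.3.3, a linear model of log2(FPKM + 1) with 1 mean for each regime was fitted to the 15 libraries together (eBayes with a mean-variance trend), and p-values were adjusted by Benjamini-Hochberg over all tested genes within each of 10 comparisons. A gene was called at an adjusted p under 0.05, two-sided. Each p-value sets a difference of regime means against the spread between libraries within regimes, estimated from all 15 and moderated across genes. Because the labels name no separate plants, this spread may be technical. The model was also run on simulated independent libraries with added changes, none of them as small as the smallest changes called here. That run therefore does not bear on the small calls. Alternatives were another pseudocount, other filters, 3 scalings, no trend, only the groups compared, a replicate block and leaving out each library.

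All 7 loci are named, with the 2 most similar genes of each tested locus. The loci, tests and alternatives were chosen with earlier results of these data known. A RefSeq gene table of assembly SLM_r2.1 held 0 of the 34075 identifiers. Other genes of nitrogen uptake and assimilation were therefore not picked out by function. Such a gene may still be among the similar patterns. Tissue markers, coordinates and sequences were not used here.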

Additional observations from a re-analysis of the deposited data

Results flagged for a closer look

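Nitrogen forms moved a locus in opposite directions from iron alone in 3 cases, each with both changes called and the direct difference between the forms called as well. The plastid glutamine synthetase Solyc01g080280 rose with nitrate and fell with urea, and the forms differed by 2.69 (log2, nitrate minus urea; limma adjusted p = 4.3e-07). The cytosolic glutamine synthetase Solyc11g011380 rose with nitrate and ammonium and fell with urea, with log2 differences from urea of 1.06 for nitrate and 0.84 for ammonium (limma adjusted p = 2.3e-05 and 0.00052). The differences of Solyc11g011380 remained called in all 15 alternatives each, while its fall with urea against iron alone was lost in 11 of 15.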

How the results depend on the processing

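Over 50 comparisons of a tested locus, 37 of them called, 706 of 750 alternative values kept their direction and their side of the threshold, 32 lost the call, 6 gained one and 6 changed sign. The number of loci called stayed within 1.5 times its value in all comparisons but iron alone against control, where it ranged from 0 to 3 with a library left out, against 3. The calls of Solyc04g014510 and Solyc03g083440 for the 3 nitrogen forms against iron alone and control held in all alternatives tried. The sign changes were in values near 0: Solyc03g063560 for urea against iron alone was at 0.0739 with size factors, 0.0648 after quantile normalization and between -0.0994 and 0.0356 with a library left out (above 0 without iron alone replicate 3), and Solyc11g011380 for ammonium against control was at 0.0166 with size factors and between -0.0563 and 0.0356 with a library left out (above 0 without control replicate 1 or iron and ammonium replicate 2); the cause was not tested. For iron alone against control, Solyc03g083440 passed the test with a mean of at least 5 FPKM (adjusted p = 0.044), size factors (0.049), equal FPKM totals (0.033) and only these groups fitted (0.037, where Solyc03g063560 lost its call at 0.068), and Solyc04g014510 after quantile normalization (0.027). Quantile normalization moved the median of all genes by 0.10 (log2) for urea against control, the largest shift by a scaling. The labels do not say whether the replicate numbers pair the libraries. Of 30 same-numbered pairs of different regimes 3 had deviations correlated over 0.1, and 5 of 15 libraries correlated best with their own number. The median correlation was 0.019 for same-numbered pairs and -0.017 for the 60 other pairs. No strong shared effect of the numbers was seen, but weak correlations cannot exclude a pairing. The replicate block lost 1 call, that of Solyc11g011380 for urea against iron alone (adjusted p = 0.054), and left 3 loci called there, against 4. With only the groups compared, the calls over all tested genes numbered 1256 against 2204 for nitrate, 1408 against 2621 for ammonium, 2365 against 3588 for urea (each against iron alone), 750 against 1209 for iron alone, 857 against 1333 for nitrate and ammonium, and 980 against 2088 for ammonium and urea. With a library left out they fell to as few as 1221, 1616, 2409, 530, 840 and 948 in these comparisons.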
